A study of Mus musculus with 36 samples.

Results

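The genes described here encode the integrins, the laminins and the nidogens of the mouse, and they are 39 of the 40205 genes counted in the study. The members were taken by symbol (Itga, Itgb, Lama, Lamb and Lamc followed by a number or letter, and Nid1 and Nid2), a rule that uses no measured value. The 39 genes comprise 18 integrin alpha chains, 8 integrin beta chains, 11 laminin chains and 2 nidogens, and each had at least 1 count in the series. The libraries were made from fetal neural stem cells (NSCs) growing as neurospheres and from the extracellular vesicles (EVs) which those neurospheres shed into their medium. The cultures were grown from dorsal telencephalon of C57BL/6J fetuses in early neuronal development, and the study's methods name the strain as carrying Ai14, a Cre-dependent reporter. Embryos of 1 pregnancy were pooled by sex, which gave a female (F) and a male (M) culture from each of 3 pregnancies (sets 3, 4 and 5), and cultures are named 3F to 5M. Each of the 6 cultures was kept for 5 days in control medium (0 mg/dL) or in 120 or 320 mg/dL ethanol. This gave 6 groups (EV or cell at 0, 120 or 320 mg/dL) of 6 libraries each, 36 in all. The cells had been passaged repeatedly as floating spheres, without the basement membrane that borders the cortical wall in the embryo.

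Integrins are receptors made of 1 alpha and 1 beta chain that span the plasma membrane and bind extracellular matrix or other cells. Laminins are trimers of an alpha, a beta and a gamma chain that assemble into sheets in basement membranes, and nidogens link the laminin sheet to collagen IV. Neural stem cells of the developing cortex are known to hold on to laminin through integrins that contain the beta chain Itgb1, most often with Itga6, and Itgb8 paired with Itgav is known to activate latent TGF-beta. A second branch of the family, with Itgb2 or Itgb7 and the alpha chains Itgad, Itgae, Itgal, Itgam and Itgax, belongs mainly to leukocytes.

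RefSeq promoters (GRCm38.p6, 250 bases before to 50 bases after the transcription start) were at hand for 24 of the 39 genes. The 4 printed here are those of Itgb1 and Itgav, among the genes with the highest level in the cells, and of Itgam and Lama2, which were under 1 CPM per kb of exon in the cells and higher in EVs. Lama2 has the fewest CG dinucleotides of the 24 genes, and other genes under this level have more (Itga8 has 23). They are given 5′ to 3′ on the strand of the gene, and capitals mark the CG dinucleotides. Itgb1 is at chr8:128685404-128685703 (plus strand), Itgav at chr2:83724147-83724446 (plus), Itgam at chr7:128062390-128062689 (plus) and Lama2 at chr10:27616893-27617192 (minus).
Itgb1: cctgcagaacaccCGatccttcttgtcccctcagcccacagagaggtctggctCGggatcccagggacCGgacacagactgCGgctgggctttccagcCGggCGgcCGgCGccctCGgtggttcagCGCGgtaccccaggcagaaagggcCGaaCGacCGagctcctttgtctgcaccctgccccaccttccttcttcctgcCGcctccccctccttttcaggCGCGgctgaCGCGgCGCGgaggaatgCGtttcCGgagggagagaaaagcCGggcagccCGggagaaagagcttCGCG
Itgav: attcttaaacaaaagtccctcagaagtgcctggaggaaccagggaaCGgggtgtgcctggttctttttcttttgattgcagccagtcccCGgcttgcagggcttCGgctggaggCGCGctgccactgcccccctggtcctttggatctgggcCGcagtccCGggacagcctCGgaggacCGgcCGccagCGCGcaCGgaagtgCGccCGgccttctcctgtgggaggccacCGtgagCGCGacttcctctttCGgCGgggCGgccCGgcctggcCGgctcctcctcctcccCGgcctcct
Itgam: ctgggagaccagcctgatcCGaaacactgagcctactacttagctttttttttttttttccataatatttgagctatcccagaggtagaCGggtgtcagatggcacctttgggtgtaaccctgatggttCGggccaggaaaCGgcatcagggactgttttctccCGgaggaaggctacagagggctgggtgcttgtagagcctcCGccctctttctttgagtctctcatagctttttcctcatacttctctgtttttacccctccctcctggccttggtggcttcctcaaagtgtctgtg
Lama2: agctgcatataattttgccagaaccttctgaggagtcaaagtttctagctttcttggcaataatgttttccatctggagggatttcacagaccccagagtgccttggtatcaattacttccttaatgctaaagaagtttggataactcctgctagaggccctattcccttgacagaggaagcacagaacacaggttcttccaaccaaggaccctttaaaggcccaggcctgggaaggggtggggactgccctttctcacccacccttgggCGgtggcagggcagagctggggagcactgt
The windows hold 27 CG dinucleotides in Itgb1, 24 in Itgav, 6 in Itgam and 1 in Lama2, against a median of 7 over the 32851 promoters of the table. Of the 11 genes with a promoter and a mean level of 1 CPM per kb or more in the cells, 10 had at least 10 CG, and of the 13 genes with a lower level 6 did, where 43.5% of all promoters hold as many. Where a gene had 2 promoters (Itga3, Itgb6 and Lamb3), the one with more CG was counted. CG was searched as these letters, which read the same on both strands, and the counts are a description of the windows.

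An EV library held between 959217 and 5509952 counts and a cell library between 26566061 and 55282322, so that a low gene rests on few counts in EVs. Values are given as CPM, the counts of a gene scaled to a common library size with TMM factors, so that they are not shares of a library. The 39 genes together had 359.8 to 1432 CPM in an EV library and 1207 to 1938 in a cell library. By library totals, without TMM, they had 281 to 917 and 1238 to 2730 CPM. In a single EV library 29 to 39 of them had a count. Of the neural stem cell markers, Nes, Vim, Fabp7, Slc1a3, Hes1, Hes5, Pax6 and Emx2 were found in all 18 cell libraries, while Sox2 was listed at 0 in all 36 libraries. Markers of other neural lineages were present in the cells too. Olig1 had 122.5, Map2 29.7, Olig2 20.6 and Gfap 15.2 CPM per kb of exon, while Dcx (0.484) and Sox10 (0.406) were low and Aqp4 was listed at 0. Whether a 0 in all 36 libraries, as for Sox2 and Aqp4, is absence or a loss in counting was not tested. Gfap ran from 9.83 to 206 CPM over the cell libraries. Markers of leukocytes, endothelium, mural cells and epithelium were low in the cells apart from Cd68 (2.42 CPM per kb of exon), with list medians of 0.0116, 0.0489, 0.0144 and 0.0386 CPM per kb. In EVs the same medians were 0.0984, 0.229, 0.0985 and 0.338 CPM per kb. The 3 EV libraries of culture 4F, all under 2000000 counts, had 11.0 to 15.2 CPM summed over the 4 epithelial markers, against 1.09 to 8.58 in the other 15 EV libraries, and 16.5 to 49.0 against 3.07 to 16.7 for the 5 endothelial markers, where the ranges overlapped.

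In the cells, 6 genes carried most of the signal of the family. Itgb1, the beta chain shared by the largest group of integrins, was the most abundant at 72.7 ± 6.29 CPM per kb of exon (SD, n = 18 libraries of 6 cultures). Itgb8 followed at 25.4 ± 8.28, Itga7, an alpha chain of a laminin receptor, at 16.9 ± 6.797, and Itgav, the alpha chain that pairs with Itgb8, at 13.6 ± 3.98 CPM per kb. Lamc1, the gamma chain of most laminins, stood at 11.1 ± 2.90 and Itga6, the other laminin-binding alpha chain present, at 10.8 ± 3.43 CPM per kb. The ranges of Itgb8 and Itga7 overlapped, as did those of Itga7, Itgav, Lamc1 and Itga6, so that the order among these 5 is not resolved beyond their spread. Itgb1 lay above all of them in every library, between 58.6 and 82.6 CPM per kb. Of all counts of the family in cells, scaled to CPM, Itgb1 took 29.0% and Itgb8 19.0%.

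Below these, Itga5, the fibronectin receptor chain, reached 7.31 ± 5.01 CPM per kb, and Itga9, Lamb2, Itga2, Lama5, Lamb1, Itgb5 and Nid1 lay between 1.35 and 4.96. The laminin chains present in the cells at over 1 CPM per kb were Lama5, Lamb1, Lamb2 and Lamc1. The remaining 25 genes were under 1 CPM per kb, from Nid2 at 0.855 ± 0.565 down to Itgax at 0.00791 ± 0.00539. Of the leukocyte chains, Itgb2 was the highest at 0.240 ± 0.175 CPM per kb.

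**Figure D1:**
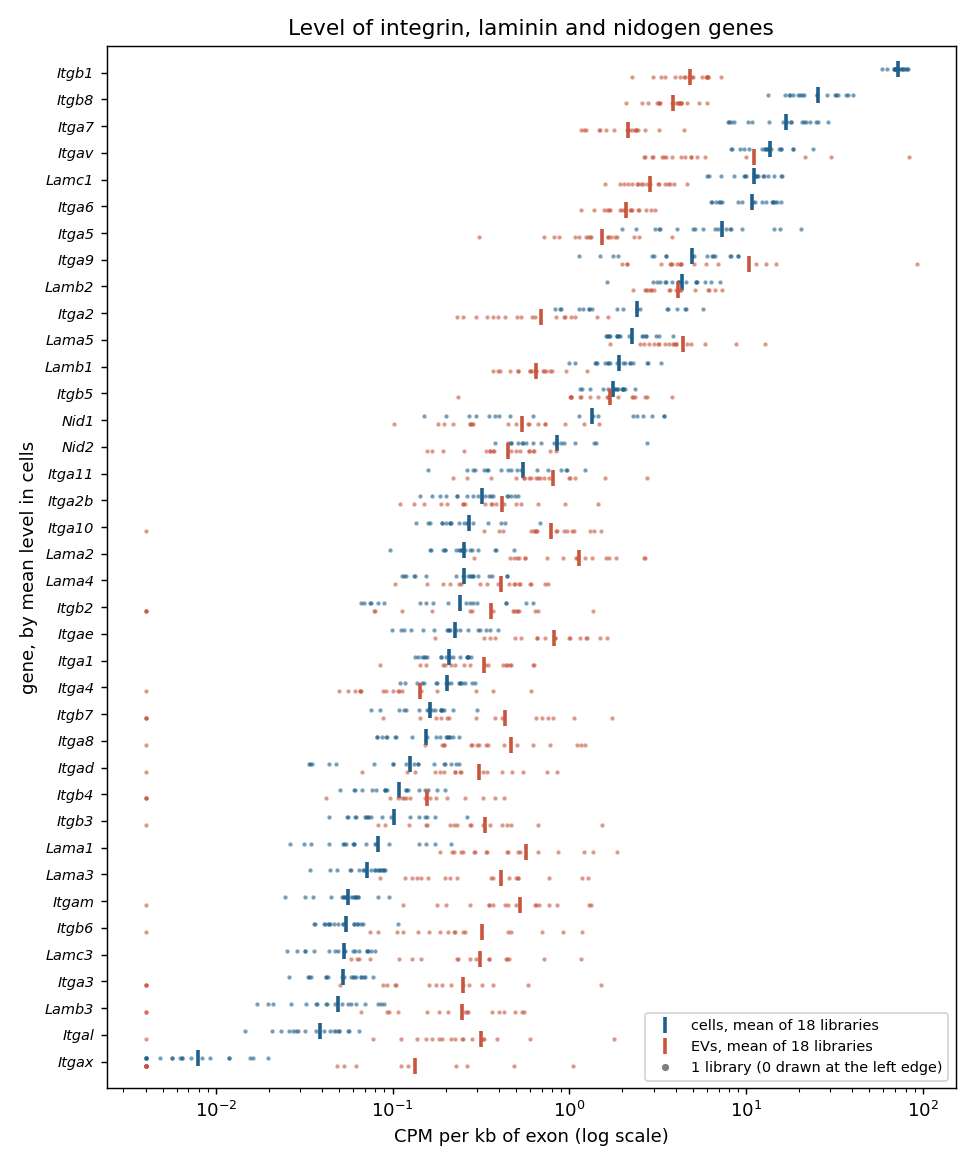
Level of genes of the family in CPM per kb of exon (log scale) in 18 cell libraries (blue) and 18 EV libraries (red). Ticks are means and dots are single libraries, and a library at 0 is drawn at the left edge. The cell means run from 0.00791 (Itgax) to 72.7 (Itgb1), and the EV means lie closer together, with single EV libraries of Itgav and Itga9 far to the right of the others.

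In EVs the levels of the genes lay closer together than in cells. Over the 36 genes that could be tested, the SD of the mean log2 level per kb was 2.97 in cells and 1.64 in EVs, and the highest mean level was 1489 times the lowest in cells and 78.1 times in EVs. Over all 14271 features measured in the same way the SDs were 2.32 and 2.02. The highest means in EVs were those of Itgav (11.2 ± 19.6 CPM per kb) and Itga9 (10.4 ± 20.9), which each rest on a few libraries. Itgb1, Lama5, Lamb2 and Itgb8 came next at 4.83 ± 1.31, 4.40 ± 2.61, 4.15 ± 1.52 and 3.87 ± 0.980 CPM per kb, and these neighbours did not differ beyond their spread.

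The comparison of EVs with the cells that released them asks which transcripts had another TMM-scaled level in EVs than in the cells. Of the 36 genes tested, 28 passed the test, 17 higher and 11 lower in EVs, with a median log2 fold change of 0.49 (all features -0.08). Over all 15281 genes tested, 80.5% passed, 38.4% higher and 42.2% lower, so that passing the test in itself does not set these genes apart. A gene that is low in cells enters the test through the EV libraries, if it is high there, so that the number of genes that rose is in part set by the filter on low counts. The main integrin receptors of the cells were lower in EVs (Itgb1, Itgb8, Itga6, Itga7, Itga5), and so were Lamc1, Lamb1 and both nidogens. The 5 laminin alpha chains were higher in EVs, of which Lama5 no longer passed and Lama4 turned to a lower value when library totals replaced the TMM scaling or the filter on low counts was dropped. The test takes the 3 doses of a culture as separate samples. With counts summed over doses 25 genes passed, 14 higher and 11 lower, and Itga1, Itga9, Itgad, Lama4 and Lama5 lost their call. In this and the other comparisons the values are relative, set by library size and TMM scaling. Fewer molecules of a gene cannot be told apart from more of the other RNA. In cells, fewer cells of a kind and less RNA per cell cannot be told apart either.

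Itgb1 (chr 8, 129411876 to 129460618 on GRCm39, plus strand) had a CPM of 350 to 493 in the 18 cell libraries (median 430) and 13.5 to 43.1 in the 18 EV libraries (median 29.0). The groups did not overlap, with a log2 fold change (EV over cell) of -3.89 ± 0.12 (SE, adjusted p = 1.77e-25 by edgeR's quasi-likelihood test). Itga7 had 65.6 to 241 CPM in cells and 9.71 to 37.2 in EVs, again without overlap, with a log2 fold change of -2.99 ± 0.20 (adjusted p = 3.67e-16). Itga6 had 72.4 to 180 CPM in cells and 13.2 to 34.6 in EVs, without overlap, a log2 fold change of -2.37 ± 0.15 (adjusted p = 1.08e-16). Both laminin-binding alpha chains of the cells were thus lower in every culture, as was the beta chain they bind to.

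Itgb8 (chr 12, 119121748 to 119202584, minus strand) ran from 150 to 456 CPM in cells and from 23.7 to 68.03 in EVs, without overlap, a log2 fold change of -2.71 ± 0.15 (adjusted p = 6.98e-18). Itga5 ran from 10.6 to 109 CPM in cells and from 1.63 to 20.4 in EVs, and here the ranges overlapped (-2.24 ± 0.29, adjusted p = 1.17e-08). Lamc1 had 68.3 to 182 CPM in cells and 18.1 to 52.6 in EVs, without overlap (-1.94 ± 0.14, adjusted p = 2.55e-15). Each of these was lower in all 6 cultures. The other genes that fell were Itga2 (-1.85), Lamb1 (-1.61), Nid1 (-1.26), Nid2 (-0.90) and Itga4 (-0.63), of which Itga2 and Lamb1 were lower in all 6 cultures and Nid1, Nid2 and Itga4 in 5. The calls of Itga4 and Nid1 were lost without culture 5M in the same direction, and that of Itga4 also without 3F or 4M.

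Among the genes higher in EVs, Itgam, the alpha chain of a leukocyte receptor for complement, had 0.126 to 0.489 CPM in cells and 0 to 6.76 in EVs (median 2.26, 0 to 14 counts in a library, 1 library at 0), a log2 fold change of 3.00 ± 0.25 (adjusted p = 2.38e-13). Lama1, the alpha chain of the first laminin of the embryo, had 0.256 to 2.08 CPM in cells and 1.81 to 18.1 in EVs, a log2 fold change of 2.67 ± 0.24 (adjusted p = 2.05e-12). Lama2, the alpha chain of muscle and vessel laminin, had 1.72 to 8.63 CPM in cells and 5.13 to 47.9 in EVs (2.03 ± 0.20, adjusted p = 9.72e-12). The ranges of Lama1 and Lama2 overlapped between EVs and cells, while the difference was in 1 direction in all 6 cultures. Counts behind the EV values were small, 3 to 27 per library for Lama1 and 12 to 105 for Lama2.

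Lama3, an epithelial laminin chain, had 0.437 to 1.17 CPM in cells and 1.09 to 16.5 in EVs (log2 fold change 2.32 ± 0.25, adjusted p = 1.01e-10). Lamc3, a gamma chain of few tissues, had 0.239 to 0.745 CPM in cells and 0.549 to 11.0 in EVs (2.31 ± 0.29, adjusted p = 4.10e-09). Both were higher in EVs in all 6 cultures, on 1 to 32 and 1 to 14 counts per EV library. The other genes that rose had log2 fold changes from 0.55 (Itga1) to 2.45 (Lamb3), with Itgb6, Itgae, Itga10, Itgb3, Itga8, Itgad, Itgb7, Lama5, Itga9 and Lama4 between them. Of these, Itgae, Itga10, Itgad and Lama5 were higher in all 6 cultures and Itgb6, Itgb3, Itga8 and Lama4 in 5. Lamb3, Itgb7 and Itga1 were higher in 4 cultures and Itga9 in 3.

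By role, 2 of 2 tested laminin-binding alpha chains fell, 4 of 5 tested leukocyte chains rose and the other (Itgb2, 0.48 ± 0.43) did not pass, and 2 of 2 nidogens fell. These counts stand beside 80.5% of all 15281 genes passing, 38.4% higher and 42.2% lower. How many of the low leukocyte chains rose is in part set by the filter on low counts. The laminin beta and gamma chains were split, with Lamb1 and Lamc1 lower, Lamb3 and Lamc3 higher, and Lamb2 (-0.07 ± 0.14) not passing. Of the 4 collagen-binding alpha chains, Itga1 and Itga10 rose, Itga2 fell and Itga11 did not pass (0.49 ± 0.27). Of the RGD-binding alpha chains, which recognize the sequence in fibronectin and its relatives, Itga8 rose, Itga5 fell, and Itgav and Itga2b did not pass. Itga3, Itgal and Itgax did not pass the filter on low counts and were not tested, with medians of 0.325, 0.255 and 0.0312 CPM in cells and 0.983, 1.44 and 0.117 in EVs.

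**Figure D2:**
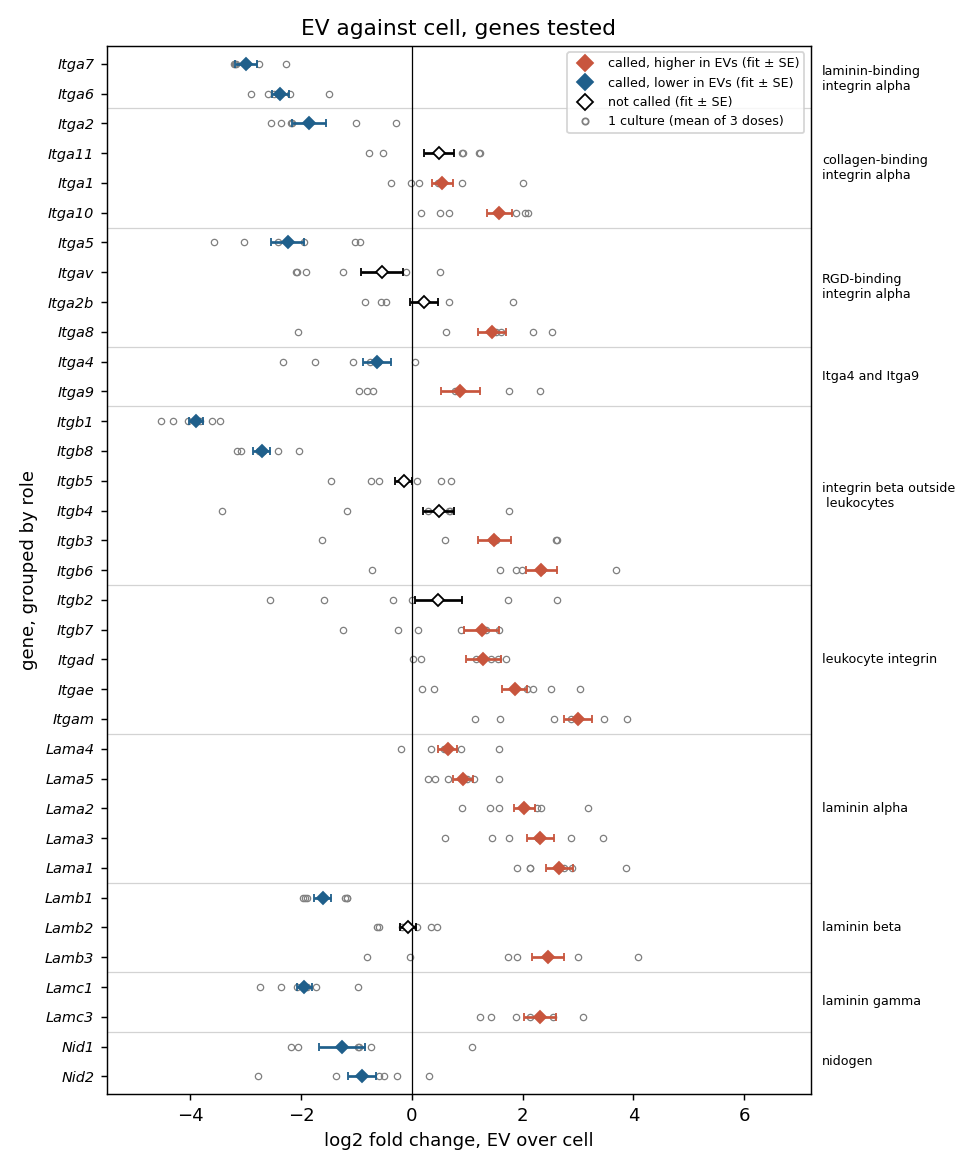
Log2 fold change of EVs over cells for genes of the family, grouped by role. Diamonds are the fitted values with their SE (red higher, blue lower, open not passing) and circles are the 6 cultures, each the mean of 3 doses. Itgb1 lies furthest to the left at -3.89 and Itgam furthest to the right at 3.00.

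Genes with a higher level in cells had lower log2 fold changes, in the family and over all genes. Spearman's rho between the level per kb in cells and the log2 fold change was -0.84 over 36 genes of the family and -0.52 over all 14271 features, values that come from the same libraries and so share their error. Of the 13 genes with a mean of 1 CPM per kb or more over the 36 libraries, 8 fell, 2 rose (Lama5 and Itga9) and 3 did not pass. Of the 26 genes under this level, 23 were tested, of which 15 rose, 3 fell (Nid1, Nid2 and Itga4) and 5 did not pass. The count that rose among these low genes is in part set by the filter, as above. Markers of cell types that the cultures should lack summed to 1.26 to 4.23 CPM in cells and 3.07 to 49.0 in EVs for endothelium, 0.410 to 1.83 and 1.09 to 15.2 for epithelium, 0.882 to 3.04 and 2.72 to 27.1 for mural and mesenchymal cells, and 2.38 to 5.40 and 1.69 to 15.7 for leukocytes. Platelet markers summed to 1.82 to 3.44 CPM in cells and 1.02 to 5.45 in EVs. Single markers were uneven, with Cldn5 at 0 in all 18 EV libraries and Cx3cr1, Tyrobp, C1qa and Aif1 at 0 in 8 or more. Cd68 was lower in EVs, with a mean of 0.534 CPM against 3.32 in cells. The part of other cells, of low counts or of library scaling in the higher values was not tested.

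With library totals in place of TMM the median over all genes moved from -0.08 to -0.88, and 27 of the 36 genes passed, 11 higher and 16 lower. Of the 28 genes that had passed, 22 kept their call and direction, Itga1, Itga9 and Lama4 turned to lower values that did not pass, and Itgad, Itgb7 and Lama5 no longer passed. Without the filter on low counts 28 of the 39 genes passed, 14 higher and 14 lower, and 22 of the 28 kept their call and direction. With DESeq2 27 of the 28 did, and Itga9 was given no adjusted p. The named genes Itgb1, Itgb8, Itga5, Itga6, Itga7, Lamc1, Itgam, Lama1, Lama2, Lama3 and Lamc3 kept their direction and call under every alternative that could test them.

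The values of Itgav and Itga9 rested on a few EV libraries. Itgav had 101 to 294 CPM in cells and, in EVs, 32.6 to 72.6 in 14 libraries, 124, 268 and 371 in culture 5M at 320, 120 and 0 mg/dL and 1039 in culture 5F at 0 mg/dL, where the single gene had 2421 counts. Its log2 fold change was -0.54 ± 0.38 (adjusted p = 0.192), and -1.12 (adjusted p = 0.000909) without culture 5F. Itga9, a receptor chain for tenascin and other ligands, had 8.72 to 69.6 CPM in cells and 15.4 to 114 in EVs other than that of culture 4F at 320 mg/dL, which had 717 CPM on 424 counts. Its log2 fold change was 0.88 ± 0.35 (adjusted p = 0.0221), with 3 of 6 cultures higher. The call was lost without culture 3M, 4F or 5M, without that 1 library (0.035), with the pairs of EV and cell libraries as a replicate block (0.34, adjusted p = 0.355), with counts summed over doses and in the control libraries alone, and the value turned to -0.26 without the EV libraries under 2000000 counts.

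The genes that act with this family were compared in the same fit. Of 23 adaptor and signalling genes of integrins, 19 passed, 9 higher and 10 lower. Of all 15281 genes 80.5% passed, 38.4% higher and 42.2% lower, so that passing in itself does not set this list apart. The lower ones included Vcl (-3.26), which ties integrins to actin, Zyx (-1.93), Fermt2 (-1.58) and Ptk2 (-0.97), and the higher ones Apbb1ip (3.26), Tns1 (2.82), Src (1.47) and Pxn (1.20). Of 13 tested basement membrane genes and laminin partners 7 fell and 3 rose, with Sdc4 (-3.73), a co-receptor, Dag1 (-2.04), a laminin receptor, and Col4a1 (-1.74) and Col4a2 (-1.34), the collagen that nidogen binds, among the lower, and Fras1 (2.38), Frem2 (2.14) and Hspg2 (0.65) the higher. Of 11 tested other ligands of integrins 8 fell and 0 rose (2 had higher values, Fbln1 and Fbln5), among them Thbs1 (-4.46), Spp1 (-4.19), Tnc (-3.53), Vcam1 (-2.80) and Fn1 (-2.56). Bcam, a laminin receptor, was listed at 0 in all 36 libraries, where absence and a loss in counting cannot be told apart.

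Ethanol was compared with the control medium of the same culture, to ask which transcripts depend on the dose. None of the 39 genes passed at either dose in cells, in EVs or in the EV-to-cell ratio, by edgeR's quasi-likelihood test. In cells 38 were tested, and 0 at 120 mg/dL and 7 at 320 mg/dL had an unadjusted p under 0.05 (Nid1, Itgb5, Itga2, Itga1, Itga7, Itgb3 and Lama4), as did 444 and 1525 of all 17792 genes. The share of all 17792 genes that passed was 0% at 120 mg/dL and 0.0393% at 320 mg/dL. DESeq2 with the same terms called 0 of the genes at 120 mg/dL and 1 at 320 mg/dL. Median log2 fold changes over the family were -0.01 and 0.09, beside -0.01 and -0.01 over all genes.

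In cells at 320 mg/dL the smallest p belonged to Nid1, the nidogen of most basement membranes. Its CPM at 0, 120 and 320 mg/dL were 2.99, 3.48 and 4.67 in 3F, 18.2, 22.0 and 25.6 in 3M, 8.55, 10.3 and 10.9 in 4F, 2.22, 2.87 and 2.62 in 4M, 1.495, 1.13 and 2.04 in 5F, and 17.3, 19.6 and 25.8 in 5M. All 6 cultures were higher at 320 mg/dL than at 0, while the range of any dose overlapped that of the others. The log2 fold change was 0.47 ± 0.10 (adjusted p = 0.158), which missed the threshold, and 0.18 ± 0.10 at 120 mg/dL (adjusted p = 1.00). In DESeq2 the value at 320 mg/dL was 0.49 with an adjusted p of 0.000552, and over the 12 alternatives the adjusted p ran from 0.000552 to 1.

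Itgb5, a beta chain that pairs with Itgav, had the next smallest p. Its CPM ran from 8.33 to 13.4 at 0, from 8.12 to 14.5 at 120 and from 9.21 to 16.7 at 320 mg/dL, higher in 6 of 6 cultures at 320 than at 0 mg/dL (log2 fold change 0.22 ± 0.07, adjusted p = 0.339), which also missed the threshold. At 120 mg/dL the smallest p were those of Itga10 (-0.37 ± 0.19) and Nid1, with an adjusted p of 1.00 for each. Itgb1 had the smallest SE, with log2 fold changes of -0.03 ± 0.06 at 120 and 0.02 ± 0.06 at 320 mg/dL. Over the 38 genes the values ran from -0.37 (Itga10) to 0.40 (Lama1) at 120 mg/dL and from -0.53 (Itgad) to 0.47 (Nid1) at 320 mg/dL, with median SEs of 0.16 and 0.17. A change of the size of these errors was not detectable in cells.

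In EVs, 24 of the genes had enough counts to be tested, and none passed at 120 or 320 mg/dL, where 0.00842% and 0.0842% of all 11880 genes did. None had an unadjusted p under 0.05 in edgeR or in DESeq2, where 744 and 1410 of all 11880 genes did in edgeR. The smallest p at 120 mg/dL were those of Lama5 (-0.42 ± 0.24, adjusted p = 0.832) and Lama2 (0.45 ± 0.28, adjusted p = 0.836). The CPM of Lama5 in EVs ran from 28.7 to 100 at 0 mg/dL (median 49.7) and from 19.5 to 46.3 at 120 mg/dL (median 42.1), and those of Lama2 from 5.13 to 47.9 (median 14.8) and from 9.24 to 32.6 (median 24.3), so that the ranges overlapped.

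At 320 mg/dL in EVs the smallest p were those of Lamc1 and Itga1. Lamc1 had 18.1 to 40.8 CPM at 0 mg/dL and 22.0 to 52.6 at 320 mg/dL (log2 fold change 0.29 ± 0.14, adjusted p = 0.422), and Itga1 had 1.81 to 13.3 and 4.59 to 13.5 (0.54 ± 0.28, adjusted p = 0.463). Itgav had the lowest values, -0.66 ± 0.54 at 120 and -0.98 ± 0.55 at 320 mg/dL (adjusted p = 0.518), where the control EV libraries of 5F (1039 CPM) and 5M (371 CPM) were the highest of the 18. The median SE over the 24 genes was 0.28 at 120 and 0.29 at 320 mg/dL, larger than in cells.

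**Figure D3:**
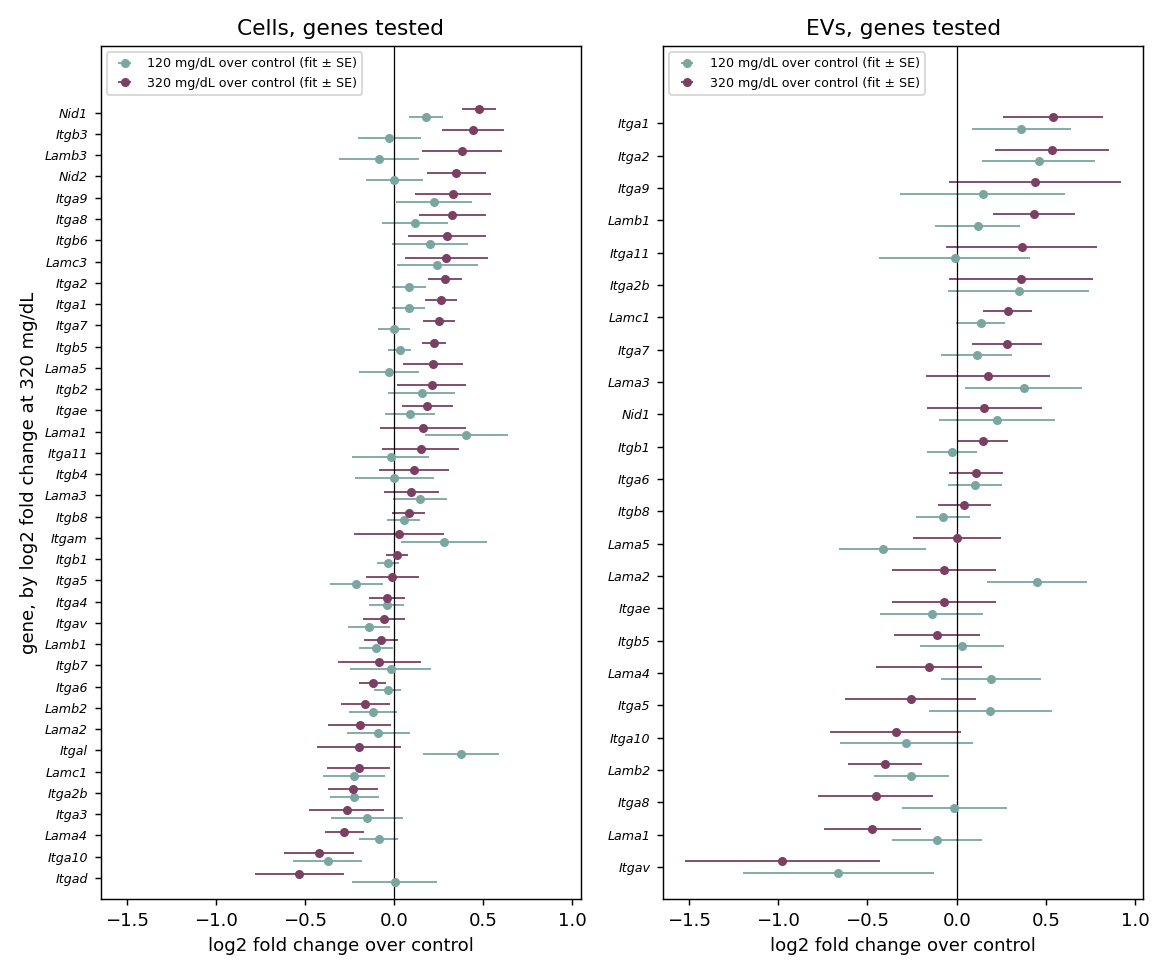
Log2 fold change over control at 120 mg/dL (green) and 320 mg/dL (purple) with SE, for genes tested in cells (left) and in EVs (right), ordered by the value at 320 mg/dL. No gene passed at either dose. Nid1 is at the top in cells (0.47) and Itgav at the bottom in EVs (-0.98).

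The EV-to-cell ratio, tested as the difference between the ethanol effects in EVs and in cells, gave no call among 38 genes at either dose, where 0.0107% of all 18728 genes passed at 120 mg/dL and 0% at 320 mg/dL. At an unadjusted p under 0.05 there were 0 genes at 120 mg/dL and 3 at 320 mg/dL (Itga8, Lamb1 and Itga3), where 781 and 1346 of all 18728 genes did, and 0 and 2 genes of the family in DESeq2. The smallest p at 320 mg/dL were those of Itga8 (-0.81 ± 0.39, adjusted p = 0.670), a receptor chain for nephronectin, and Lamb1 (0.47 ± 0.23, adjusted p = 0.693). Itga8 had 2.05 to 12.6 CPM in EVs at 0 mg/dL and 0 to 6.76 at 320 mg/dL, and 0.876 to 2.22 and 1.13 to 2.37 in cells. Lamb1 had 3.98 to 10.2 and 5.49 to 13.5 CPM in EVs and 15.04 to 35.4 and 10.7 to 29.8 in cells. At 120 mg/dL the smallest p were those of Lama2 (0.51 ± 0.31) and Lama1 (-0.52 ± 0.36), with an adjusted p of 1.00 for both.

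The culture took a larger share of the spread over the libraries than the dose did. In cells the culture accounted for a median of 80.6% of the sum of squares of log2 CPM over the 38 genes, and the dose for 3.45%, and all features gave 73.7% and 2.64%. The share of the culture was larger than that of the dose for 38 of 38 genes in cells and for 24 of 24 in EVs, where the medians were 60.1% and 5.83% (56.1% and 6.13% over all features). The same held for 17559 of all 17792 features in cells and 11440 of 11880 in EVs. The shares are not divided by the number of groups, and 6 cultures take a larger share than 3 doses even where neither has an effect. The counts of genes are therefore no test of culture against dose, and the shares are descriptions of the libraries at hand.

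In cells Nid1 spread furthest over the cultures, by 3.81 on the log2 scale between the mean of 3M and that of 5F, and the culture took 97.5% of its sum of squares. Itga2, a collagen receptor chain, took 32.4 to 40.7 CPM in culture 5F and 25.7 to 29.1 in 5M, and 5.93 to 17.9 in the cultures of sets 3 and 4. Itga5 reached 76.2 to 109 CPM in 5M and 10.6 to 21.7 in 5F, the other culture of the same pregnancy, and its culture means spread by 2.63 on the log2 scale. Itgb2 spread by 2.69 on that scale, from 4M to 3M. Itgb1 spread least of the 38 genes in cells, with culture means within 0.28 of each other on the log2 scale. In EVs Itga8 spread furthest of the 24 genes, by 4.34 on that scale, from 3M to 4F, and Nid1 by 2.15. The spread of Itga8 rests in part on the EVs of 3M at 320 mg/dL, which were 5.84 below their control on that scale. Itga8 had an EV library at 0 CPM at that dose, where the log2 value is set by the prior count.

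**Figure D4:**
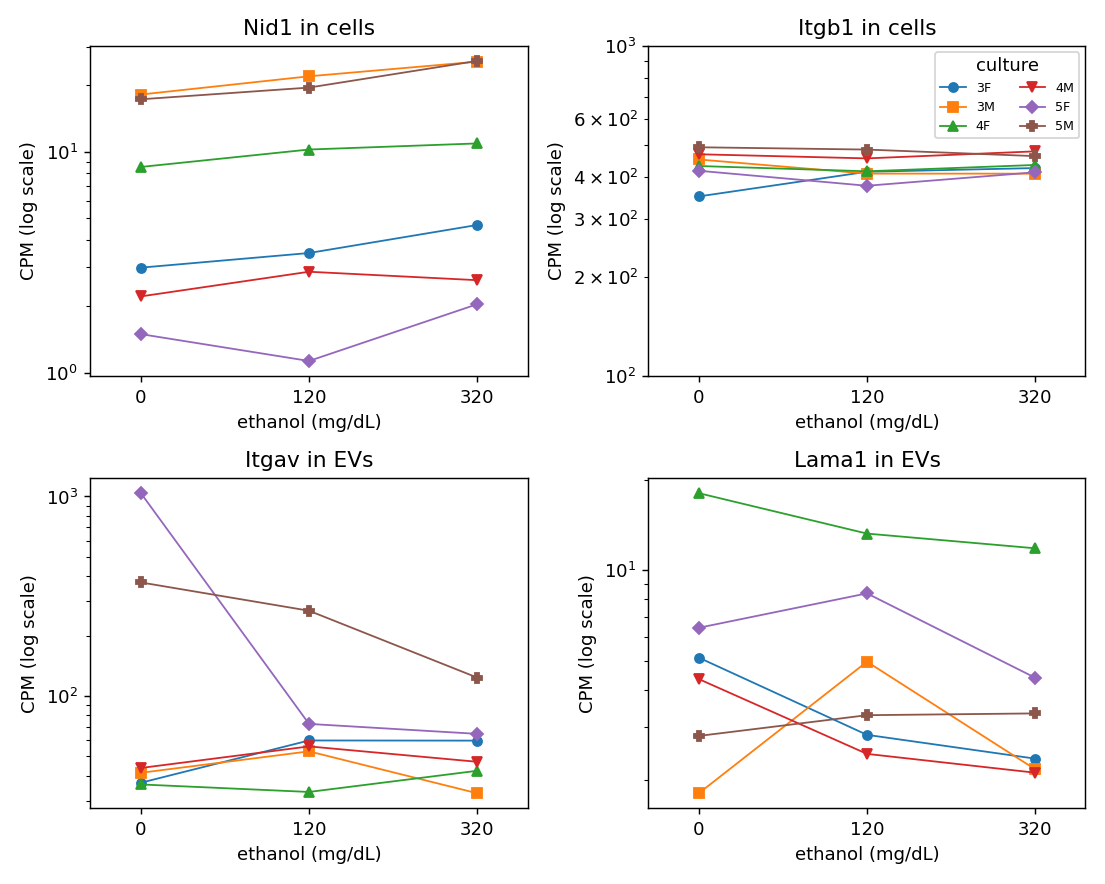
CPM (log scale) of Nid1 and Itgb1 in cells and of Itgav and Lama1 in EVs at 0, 120 and 320 mg/dL (spaced evenly), 1 line for each of the 6 cultures. Lines of Nid1 keep apart by culture (1.495 to 18.2 CPM at 0 mg/dL), those of Itgb1 lie together (350 to 493), Itgav stands out in the control EVs of 5F (1039) and Lama1 in the EVs of 4F.

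The sexes were compared within each location over 9 libraries each, which are 3 cultures at 3 doses. In cells 5 of 38 genes passed, where 5.83% of all 17052 genes did. Itga9 had 38.4 to 69.6 CPM in female and 8.72 to 46.5 in male cells (log2 fold change 1.34 ± 0.26, adjusted p = 0.00665), and Lama4, a laminin chain of vessels, had 4.20 to 6.99 and 1.79 to 4.33 (0.94 ± 0.20, adjusted p = 0.0127). Lama1 had 0.519 to 2.08 in female and 0.256 to 0.684 CPM in male cells (1.26 ± 0.28, adjusted p = 0.0154), and Lama2 had 4.26 to 8.63 and 1.72 to 4.38 (0.69 ± 0.18, adjusted p = 0.0317). Itgav was lower in females, with 101 to 163 CPM against 157 to 294 (-0.64 ± 0.14, adjusted p = 0.0153). Ranges overlapped for each of these 5 genes.

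In EVs 4 of 20 genes passed, all higher in females, where 11.1% of all 11037 genes passed. Itgb5 had 8.26 to 27.1 CPM in female and 1.65 to 11.7 in male EVs (log2 fold change 1.01 ± 0.24, adjusted p = 0.0179). Lama1 had 2.36 to 18.1 and 1.81 to 4.96 CPM (1.39 ± 0.38, adjusted p = 0.0301), Lama2 8.26 to 47.9 and 5.13 to 30.0 (1.22 ± 0.35, adjusted p = 0.0358) and Lama4 4.89 to 11.8 and 1.63 to 9.51 (0.97 ± 0.29, adjusted p = 0.0397). The laminin alpha chains Lama1, Lama2 and Lama4 therefore passed in both locations with the same sign, from EVs and cells of the same cultures.

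These calls take the 3 doses of a culture as separate samples. With the counts of a culture summed over doses, 3 female against 3 male cultures, 0 of the genes passed in cells (5 with an unadjusted p under 0.05) and 0 in EVs (9 with an unadjusted p under 0.05), against 5 and 4. Without culture 5M the count in cells was 0, without 3F it was 3 and without 3M it was 14. In EVs it was 0 without 3M, 4F or 5F, 1 without 4M and 8 without 3F. Without the EV libraries under 2000000 counts it was also 0 in EVs, and the log2 fold changes of Itgb5, Lama2 and Lama4 were then 0.63, 0.75 and 0.83. The 26 genes under 1 CPM per kb summed to 141 to 227 CPM in the EVs of 4F and to 49.0 to 144 CPM in the EVs of the other 5 cultures. The endothelial markers summed to 4.72 to 49.0 CPM in female and 3.07 to 7.09 in male EVs and the epithelial markers to 3.07 to 15.2 and 1.09 to 7.51, and the libraries held 975131 to 5066852 and 959217 to 5509952 counts. Their part in the sex difference was not tested. With the pregnancy as a replicate block, 13 genes passed in cells and 7 in EVs. With library totals 5 passed in cells, 2 of them higher in females, against 4 of 5 in the fit above.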

How the data were processed

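The authors depleted ribosomal RNA, made stranded libraries from EV pellets and cells, removed duplicate reads, trimmed with Trimmomatic, aligned to mm39 with STAR and used HTSeq for counting. They deposited raw whole-number counts, with 40205 genes in each of 36 libraries. Whether HTSeq used the strand is not given in the sources used here, so that reads of overlapping genes (Itga1 with Pelo and Mocs2, Itga2 with Mocs2, Itgad with Cox6a2, Lamb1 with Dld, Lamb3 with G0s2 and Hsd11b1, Lama5 with Adrm1, Itga4 with Cerkl, Itga7 with Tmt1b, Itgae with Haspin, Itgb4 with Galk1, Lama4 with Fam229b, Nid2 with Rtraf, and others with predicted genes) cannot be told apart, and their levels are uncertain by what such reads add or lose. Gene models for lengths and positions were those of GENCODE for GRCm39, where 31778 of 40205 symbols and all 39 genes of the family were found. Levels are CPM with TMM scaling over 36 libraries, per kb of the union of exons where genes are compared with each other.

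Counts were tested in R 4.3.3 with edgeR 4.0.16 by quasi-likelihood F tests after filterByExpr (minimum count 10, minimum total count 15) and TMM scaling, with Benjamini-Hochberg adjustment over all genes tested and 0.05 as the threshold. SEs are the fold change over the root of F. EVs were compared with cells with terms for sex and dose, doses with the culture as a block, ratios as the difference of dose effects with a culture term in each location, and sexes with a term for dose. Libraries of a culture share its pooled embryos, which the labels give by set and sex. Correlations of their deviations from the group means had medians of 0.702 and 0.690 in cells and 0.175 and 0.319 in EVs for 120 and 320 mg/dL with control. No 2 libraries were identical. Alternatives were DESeq2 1.42.0, median-of-ratios factors, library totals, no filter, thinning, leaving out each culture, other blocks, sums over doses, single doses, and, chosen after seeing the data, leaving out the EV libraries under 2000000 counts or that of 4F at 320 mg/dL. The tests were also run on simulated counts that held no culture effect. Such counts cannot show what taking the doses of a culture as separate samples does to the calls.

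The family and the lists of partners and markers were chosen with earlier results of these data known. Genes are named by rule, as the 6 with the highest level in cells, the 5 largest changes in each direction between EVs and cells among those passing and in 1 direction in all 6 cultures, all that passed for ethanol or sex, and, where none passed, the 2 with the smallest p. Other genes are given by counts and ranges, 1 member of the family counted in these is not reported here by name or drawn, and those named for single libraries (Itga9, Itga2, Itga5 and Itgb2 by culture) were chosen after their values were seen. Printed errors are SDs over libraries or SEs of the fit, and 0 counts in a shallow EV library do not show absence.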

Additional observations from a re-analysis of the deposited data

Results flagged for a closer look

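The genes named by rule and the sum over the 39 genes were screened, in groups of 6 libraries. Of these, 17 of 132 groups of CPM values held a library far from the others (its gap to the nearest library, over the range of the group, was above Dixon's critical value). That value is set for about 1 in 20 groups of independent, normally distributed values. The CPM were not log-transformed and the groups share libraries, so that 17 of 132 cannot be set against that rate. Of these 17, 9 were EV libraries of culture 4F. At 0 mg/dL that culture had in EVs 20.4 CPM of Itga5 (3.83 to 9.87 in the other 5 cultures), 18.1 of Lama1 (1.81 to 6.44), 16.5 of Lama3 (1.51 to 6.44) and 11.0 of Lamc3 (0.702 to 4.29). At 320 mg/dL it had 717 CPM of Itga9 (15.4 to 39.2), 11.8 of Lama1 (2.12 to 4.39), 47.4 of Lama2 (8.26 to 22.0) and 147 of Lama5 (30.2 to 66.9), and 1319 CPM over the 39 genes (359.8 to 491). Among the genes screened, those flagged in 4F were laminin chains and 2 integrin alpha chains. Genes of the family that are not named by rule were not screened, so that this does not describe the family in 4F. The same libraries held more of the epithelial and mural markers than the other EV libraries, with 11.0 to 15.2 CPM against 1.09 to 8.58 for the epithelial list and 13.3 to 27.1 against 2.72 to 10.3 for the mural and mesenchymal list, while the endothelial list overlapped at its edge (16.5 to 49.0 against 3.07 to 16.7). The leukocyte list had medians of 4.42 CPM in the 3 libraries of 4F and 5.12 in the other 15, with overlapping ranges. By library totals, without TMM scaling, the 39 genes had 504 CPM in 4F at 320 mg/dL, against 284 to 427 in the other 5 cultures at that dose. The 1319 CPM of that library are thus a TMM-scaled value. The part of other cells in these values, and of the scaling in those of single genes, was not tested.

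Itgav in EVs stood out in the cultures of set 5, with 1039 CPM in 5F at 0 mg/dL (36.1 to 371 in the others), 268 in 5M at 120 mg/dL (33.1 to 72.6) and 124 in 5M at 320 mg/dL (32.6 to 64.7). The sum over the 39 genes was 1432 CPM in the same 5F library (363.7 to 745.8 in the others).

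In cells, Itgb5 was lowest in 3F at 120 mg/dL (8.12 CPM, 12.3 to 14.5 in the others) and at 320 mg/dL (9.21, 13.97 to 16.7). Itgam was lowest in 4M at 320 mg/dL (0.164 CPM, 0.270 to 0.328) and Lama1 highest in 5F at 320 mg/dL (2.08 CPM, 0.256 to 0.784).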

How the results depend on the processing

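Between EVs and cells 22 to 29 genes passed under the alternatives, 25 to 28 with each culture left out and 28 (16 higher, 12 lower) with each pair of EV and cell libraries (1 culture at 1 dose) as a replicate block, except when all libraries were thinned to the smallest total, where 12 could be tested and 10 passed. Itgav turned to 0.44 in the control libraries alone and to 0.003 after thinning, and neither value passed. For ethanol in cells and in EVs the block is the culture, and no call changed without it, nor in the ratio with the pairs as a block. In cells at 320 mg/dL 1 gene passed in DESeq2 (Nid1), and in EVs at 320 mg/dL 1 passed without the filter on low counts (Itgav, lower), and with each culture left out 0 genes passed in the 6 ethanol comparisons. Sex moved most. In cells 10 genes passed in DESeq2, 13 with pregnancy as a replicate block, 0 with counts summed over doses and 0 to 14 with a culture left out. In EVs 1 passed with library totals, 7 with the block, 0 with summed counts, 0 to 8 with a culture left out, and 0 without the EV libraries under 2000000 counts. The causes were not tested. Of the alternative values of single genes, 404 kept direction and side of the threshold, 48 no longer passed, 5 newly passed, 2 turned, both of Itgav, and 5, the levels per kb of 5 of the 6 most abundant genes, rose by more than their SD with the longest transcript as length (Itgb1 to 84.3 CPM per kb). Low counts in EVs limit the rest, since 24 of the 39 genes could be tested there for ethanol.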
